A study of Mus musculus with 24 samples.

Results

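The genes described here are 10 members of the Toll-like receptor system measured on 24 arrays of bone marrow B-lineage cells from irradiated mice: the receptors Tlr1, Tlr2, Tlr4, Tlr7 and Tlr9, the receptor-like pair Ly86 and Cd180, the co-receptors Ly96 and Cd14, and the adaptor Myd88. They were taken by gene symbol from 19938 named genes, each had 1 probe set, and all 10 were among the 15647 genes tested. Ly86 was chosen by its difference between genotypes and Tlr7 by its difference between stages, so those differences are given as a description, with no test. Values are log2 signals, on which a difference of 1 is a doubling. Each array is taken to hold RNA of 1 mouse, because the labels call the samples biological replicates. The 4 groups were preleukemic wild type (WT, n = 3), preleukemic Pax5+/- (n = 7), leukemic WT (n = 4) and leukemic Pax5+/- (n = 10). Every mouse, controls included, had received 2 Gy of ionizing radiation. Pax5+/- mice carry 1 functional allele of Pax5, which encodes the factor that fixes B-cell identity in early progenitors. The preleukemic RNA came from early B cells (pro-B and pre-B). The leukemic samples, labelled leukemic bone marrow B cells, came from marrow that bore tumors. All 24 samples carry a label of 3 weeks, the leukemic ones included, so the time at which leukemic marrow was taken is not clear from the labels. The labels used here give no strain, age or sex. Stage and the kind of cells collected thus change together, and in such bulk RNA fewer cells of a type and less RNA per cell cannot be told apart.

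Toll-like receptors recognise microbial molecules and start inflammatory and interferon responses. Tlr1, Tlr2 and Tlr4 act at the cell surface, where Tlr4 binds lipopolysaccharide together with Ly96 (MD-2) and Cd14 delivers the ligand. Tlr7 and Tlr9 sense single-stranded RNA and unmethylated CpG DNA inside endosomes, and most of these receptors signal through Myd88. Cd180 (RP105) is a Toll-like receptor relative of B cells and myeloid cells that lacks the signalling domain, and Ly86 (MD-1) is the secreted partner that it needs to reach the cell surface. In B cells this pair modulates the response to lipopolysaccharide.

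The promoter windows of Ly86, of its partner Cd180 and of Tlr9 are shown because these genes are described at length below. Ly86 was chosen by its difference between genotypes, which was not tested. Cd180 did not pass the test between genotypes, and Tlr9 fell with stage in both genotypes. The sequences are RefSeq windows of GRCm38.p6 from 250 bases before to 50 bases after the start of the gene, printed 5′ to 3′ on the strand of the gene. They lie at chr13:37345095-37345394 (plus strand) for Ly86, chr13:102693297-102693596 (plus strand, the first of 2 overlapping windows) for Cd180 and chr9:106222348-106222647 (plus strand) for Tlr9. Capitals mark matches, on either strand, to GAGGAA (a core bound by the ETS factor PU.1) and to GAAANNGAA (a core bound by interferon regulatory factors), letters that were chosen after the windows had been read.
Ly86: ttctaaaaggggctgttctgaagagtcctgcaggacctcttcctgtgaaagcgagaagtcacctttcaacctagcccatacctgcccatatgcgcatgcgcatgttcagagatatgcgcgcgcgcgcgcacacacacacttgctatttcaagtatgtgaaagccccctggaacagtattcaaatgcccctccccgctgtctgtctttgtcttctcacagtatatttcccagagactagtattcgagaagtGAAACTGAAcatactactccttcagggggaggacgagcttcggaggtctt
Cd180: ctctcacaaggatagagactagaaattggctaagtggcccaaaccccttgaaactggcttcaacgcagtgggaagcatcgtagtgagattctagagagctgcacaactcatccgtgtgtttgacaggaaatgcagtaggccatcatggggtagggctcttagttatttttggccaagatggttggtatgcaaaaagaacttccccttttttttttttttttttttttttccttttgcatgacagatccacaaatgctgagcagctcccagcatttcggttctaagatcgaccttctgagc
Tlr9: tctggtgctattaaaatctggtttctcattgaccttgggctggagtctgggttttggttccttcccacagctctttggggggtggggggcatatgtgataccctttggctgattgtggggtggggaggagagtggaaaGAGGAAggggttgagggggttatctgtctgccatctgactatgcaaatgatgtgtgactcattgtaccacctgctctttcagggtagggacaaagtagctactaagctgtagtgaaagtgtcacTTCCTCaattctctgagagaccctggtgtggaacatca
Ly86 held 1 match to GAAANNGAA, at bases 251 to 259 of the window, and Tlr9 held 2 matches to GAGGAA, at bases 139 to 144 and, on the other strand, 263 to 268. The Cd180 window held neither. Of 32851 such windows in the table, 28.3% held GAGGAA and 8.56% held GAAANNGAA, and the motifs share no overlap in the windows shown. A match describes letters only. Myd88 also held 1 match to GAAANNGAA, at bases 211 to 219, and 1 of the Tlr1 windows held GAGGAA at bases 228 to 233. Of the 10 genes, 6 had a window in the table, and Tlr4, Tlr7, Ly96 and Cd14 are named only.

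The arrays were first checked against their labels. The B-lineage genes Cd79a, Cd79b and Ebf1 lay above the dim level on all 24 arrays, where the dim level is the 30th percentile of the array (5.18 to 5.35) and stands in for background. The mean over 12 pro-B and pre-B markers ran from 11.39 to 11.73 in preleukemic and from 8.78 to 10.95 in leukemic arrays. Pax5 ran from 11.47 to 12.16 in preleukemic WT, from 11.34 to 11.59 in preleukemic Pax5+/-, from 6.34 to 10.74 in leukemic WT and from 6.87 to 11.37 in leukemic Pax5+/- arrays. At least 3 arrays stood apart. Preleukemic WT array 1 had a granulocyte marker mean of 10.39, against 6.46 and 6.54 in the other arrays of its group, and leukemic Pax5+/- array 2 had the Pax5 value of 11.37, against at most 9.38 in the other 9. Leukemic WT array 2 had a pro-B and pre-B mean of 8.78, against 10.18 to 10.38 in the other arrays of its group, an NK-cell marker mean of 9.06, against 5.23 to 5.44, and a Pax5 value of 6.34, against 10.03 to 10.74. Several results that rest on these arrays are given with and without them, while the marker counts are given only with all arrays.

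**Figure D1:**
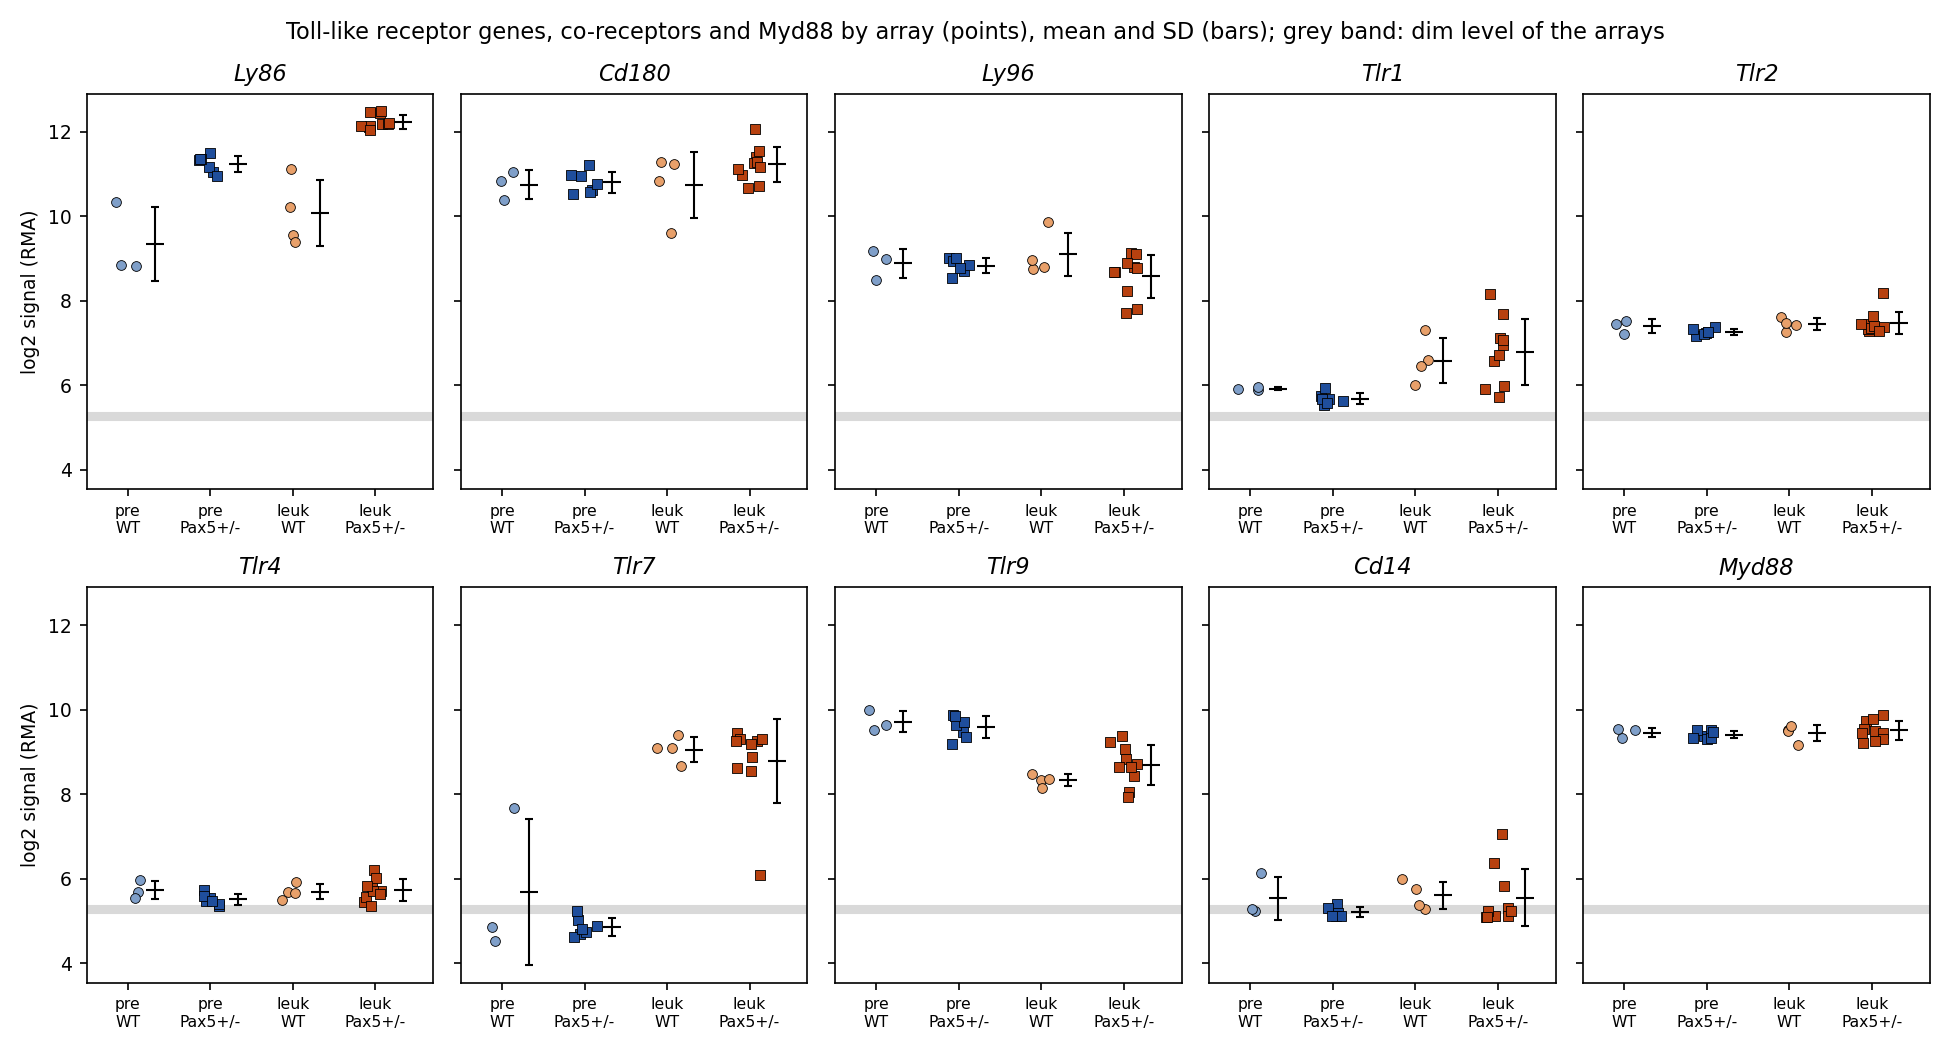
Log2 signal of the 10 genes in each array (points) by group, with the group mean and SD (bars) and the dim level of the arrays (grey band). Ly86 lies higher in Pax5+/- than in WT arrays at each stage, Tlr7 lies in or below the grey band in 9 of 10 preleukemic arrays and above it in every leukemic array, and Myd88 stays between 9.18 and 9.87 throughout.

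Ly86 had its lowest levels in WT and its highest in Pax5+/- cells at both stages. In preleukemic WT arrays its log2 signal was 10.34, 8.84 and 8.82, a mean of 9.34 ± 0.87 (SD, n = 3). In preleukemic Pax5+/- arrays it ran from 10.95 to 11.50 with a median of 11.33, a mean of 11.24 ± 0.19 (SD, n = 7). All 7 Pax5+/- arrays lay above all 3 WT arrays. The log2 difference was 1.91 with a standard error (SE) of 0.29, or 3.75-fold, and 2.41 without preleukemic WT array 1, which had the highest value of its group.

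The leukemic arrays showed the same order. Ly86 was 10.23, 9.55, 11.12 and 9.40 in leukemic WT arrays, a mean of 10.08 ± 0.78 (SD, n = 4), and ran from 12.04 to 12.48 with a median of 12.18 in leukemic Pax5+/- arrays, a mean of 12.24 ± 0.16 (SD, n = 10). The groups did not overlap, and the log2 difference was 2.16 (SE 0.25), or 4.47-fold. It lay between 1.94 and 2.51 when each array was left out in turn, and was 1.99 without leukemic WT array 2. The SD of Ly86 was larger in both WT groups than in either Pax5+/- group. Ordered by mean, the groups ran preleukemic WT, leukemic WT, preleukemic Pax5+/- and leukemic Pax5+/-. The WT groups overlapped, and leukemic WT array 3, at 11.12, lay within the range of the preleukemic Pax5+/- arrays.

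The stage difference of Ly86 was not used to choose it and was tested. Ly86 rose from preleukemic to leukemic Pax5+/- cells by 0.99 on the log2 scale (SE 0.21, 1.99-fold, limma adjusted p = 0.000274), and every leukemic array lay above every preleukemic array. In WT cells the difference was 0.74 (SE 0.32, limma adjusted p = 0.0687), which did not pass the threshold of 0.05. That call depended on single arrays: the difference was 1.24 (limma adjusted p = 0.00159) without preleukemic WT array 1, 0.91 (adjusted p = 0.0371) without leukemic WT array 2 and 0.97 (adjusted p = 0.0229) without leukemic WT array 4. Within leukemic Pax5+/- arrays Ly86 averaged 12.14 in 5 arrays with high and 12.33 in 5 arrays with low signal of Y-linked genes.

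Cd180, the membrane partner of Ly86, did not pass the test in any comparison. Its log2 signal was 11.05, 10.37 and 10.82 in preleukemic WT and 10.84, 9.60, 11.29 and 11.25 in leukemic WT arrays. In Pax5+/- arrays it ran from 10.53 to 11.20 with a median of 10.75 before leukemia and from 10.67 to 12.07 with a median of 11.22 in leukemia. The Pax5+/- and WT ranges overlapped at both stages. Between genotypes Cd180 differed by 0.05 (SE 0.29, limma adjusted p = 0.998) in preleukemic and by 0.48 (SE 0.25, limma adjusted p = 0.684) in leukemic samples. The leukemic value rests on WT array 2, the lowest at 9.60, since it was 0.10 (SE 0.21) without it. Between stages the difference was 0.43 (SE 0.21, limma adjusted p = 0.0799) in Pax5+/- and -0.01 (SE 0.32, limma adjusted p = 0.99) in WT mice, or 0.37 (SE 0.27, limma adjusted p = 0.284) without leukemic WT array 2. The Pax5+/- stage difference passed with only the compared groups in the fit (adjusted p = 0.0316) and without leukemic Pax5+/- array 7 (0.49, adjusted p = 0.0478).

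Ly86 and Cd180 both lie on chromosome 13, and their neighbouring genes were also read, a check added after the values were seen. Of the 10 nearest tested genes around Ly86, 0 were called by limma between genotypes at either stage. Among all genes, 0.262% were called higher and 0.524% lower in preleukemic samples, and 0.0511% and 0.109% in leukemic samples. The differences of the 10 neighbours ran from -0.66 to 0.37 in preleukemic and from -0.20 to 0.46 in leukemic samples. At an unadjusted limma p under 0.05 there were 3 in preleukemic samples (Ssr1, Riok1 and Snrnp48) and 2 in leukemic samples (Ssr1 and Riok1), all higher in Pax5+/- mice. The share of all genes under that unadjusted p is not given here. Ssr1 differed by 0.37 (SE 0.17) and 0.46 (SE 0.14), and Riok1 by 0.25 (SE 0.10) and 0.25 (SE 0.08). Around Cd180, 1 of 10 was called in preleukemic samples, the peptidase gene Nln (-0.68, SE 0.11, limma adjusted p = 0.0024), and 0 in leukemic samples, with 2 at an unadjusted p under 0.05 at each stage. The genes whose pattern over the 24 arrays was most like that of Ly86 were Nmd3 (Pearson r = 0.81), Zfp939 (0.79), Orc5 (0.76), Cul5 (0.75) and Hhex (0.74). All 24 points share the division into 4 groups, and within the 10 leukemic Pax5+/- arrays the same correlations ran from -0.33 to 0.57.

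Tlr7, the endosomal RNA sensor, was dim before leukemia and bright in it. Its log2 signal was 7.66, 4.53 and 4.87 in preleukemic WT arrays, a mean of 5.69 ± 1.72 (SD, n = 3). In preleukemic Pax5+/- arrays it ran from 4.63 to 5.23 with a median of 4.82, a mean of 4.86 ± 0.21 (SD, n = 7), at or below the dim level on all 7. In leukemic WT arrays it was 9.09, 9.39, 8.67 and 9.09, a mean of 9.06 ± 0.30 (SD, n = 4). In leukemic Pax5+/- arrays it ran from 6.09 to 9.46 with a median of 9.22, a mean of 8.79 ± 1.00 (SD, n = 10). Every leukemic array lay above every preleukemic array of its genotype, and preleukemic WT array 1 was the only preleukemic array above its dim level.

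Where the lower group lay at or below the dim level, those arrays were set to their dim level and the fold is a lower bound. On that basis Tlr7 was at least 11.1-fold higher in leukemic than in preleukemic Pax5+/- cells, where the measured difference was 3.93 on the log2 scale (SE 0.41). In WT cells it was at least 7.74-fold higher, with a measured difference of 3.37 (SE 0.64). Without leukemic Pax5+/- array 2 the Pax5+/- bound was 13.7-fold, and without preleukemic WT array 1 the WT bound was 13.3-fold and the measured difference 4.36. Without leukemic WT array 2 the WT bound was 7.16-fold. Between preleukemic genotypes no size is given for Tlr7 beyond a bound, because all 7 Pax5+/- arrays and 2 of the 3 WT arrays lay at or below the dim level. With the Pax5+/- arrays set to their dim level the WT mean was at least 1.29-fold above that of Pax5+/- mice, which rests on WT array 1. In leukemic samples Tlr7 differed by -0.27 (SE 0.49, limma adjusted p = 0.957) between genotypes, which did not pass the test, and by 0.03 (limma adjusted p = 0.999) without Pax5+/- array 2.

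Tlr7 lies on the X chromosome, and sex could be read only from Y-linked genes. These were high in all 3 preleukemic WT and low in all 4 leukemic WT arrays, and within WT mice the effects of stage and of sex therefore cannot be told apart. In leukemic Pax5+/- mice Tlr7 averaged 8.49 in 5 arrays with high and 9.09 in 5 arrays with low Y-linked signal, and in preleukemic Pax5+/- mice 4.90 in 4 and 4.81 in 3 arrays. Both classes of leukemic Pax5+/- arrays lay above both classes of preleukemic ones.

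Markers of monocytes and platelets rose with stage in both genotypes. Of 15 monocyte and macrophage markers 12 rose in Pax5+/- (80%) and 7 in WT mice (46.7%). Of 5 platelet markers 5 rose in each (100%). Among all genes 27.8% rose and 35.1% fell in Pax5+/- mice, and 18.7% rose and 20.4% fell in WT mice. Of 16 granulocyte markers 11 rose in Pax5+/- mice (68.8%). In WT mice limma called 0 of the 16 (2 at an unadjusted p under 0.05), and preleukemic array 1 lay above all 4 leukemic arrays in their mean. The mean over 15 monocyte and macrophage markers ran from 6.11 to 6.42 in preleukemic Pax5+/-, from 6.88 to 9.07 in leukemic Pax5+/- and from 7.54 to 8.27 in leukemic WT arrays. In preleukemic WT it was 7.54 in array 1 and 6.29 and 6.37 in the others, and array 1 also had the Tlr7 value of 7.66. The mean over 16 granulocyte markers ran from 6.13 to 6.72 in preleukemic Pax5+/-, from 6.15 to 10.59 in leukemic Pax5+/- and from 7.97 to 9.98 in leukemic WT arrays. In 2 leukemic Pax5+/- arrays the granulocyte mean lay within the range of the preleukemic Pax5+/- arrays: array 7, at 6.15, had a Tlr7 value of 9.30, and array 2, at 6.40, had the lowest Tlr7 value of the leukemic arrays, 6.09. The plasmacytoid dendritic mean, over 7 markers, ran from 8.19 to 8.57 in preleukemic and from 7.77 to 10.01 in leukemic Pax5+/- arrays. There 4 of 7 rose (57.1%) and 1 fell (14.3%). In preleukemic WT it was 10.13 in array 1 and 8.37 and 8.53 in the others, so its average of 9.01 rests on array 1. In leukemic WT it ran from 8.03 to 9.31 with an average of 8.64, and the other preleukemic arrays lay within that range. With array 1 in the fit, 0 of these markers rose and 3 fell (42.9%) in WT mice. The platelet mean, over 5 markers, ran from 6.60 to 6.85 in preleukemic and from 8.22 to 11.18 in leukemic Pax5+/- arrays. Among the 15 monocyte and macrophage markers, Csf1r and Lyz2 were above the dim level on all 24 arrays. The others of that list are not set against the dim level here. The part of these cells in the Tlr7 result was not tested.

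**Figure D2:**
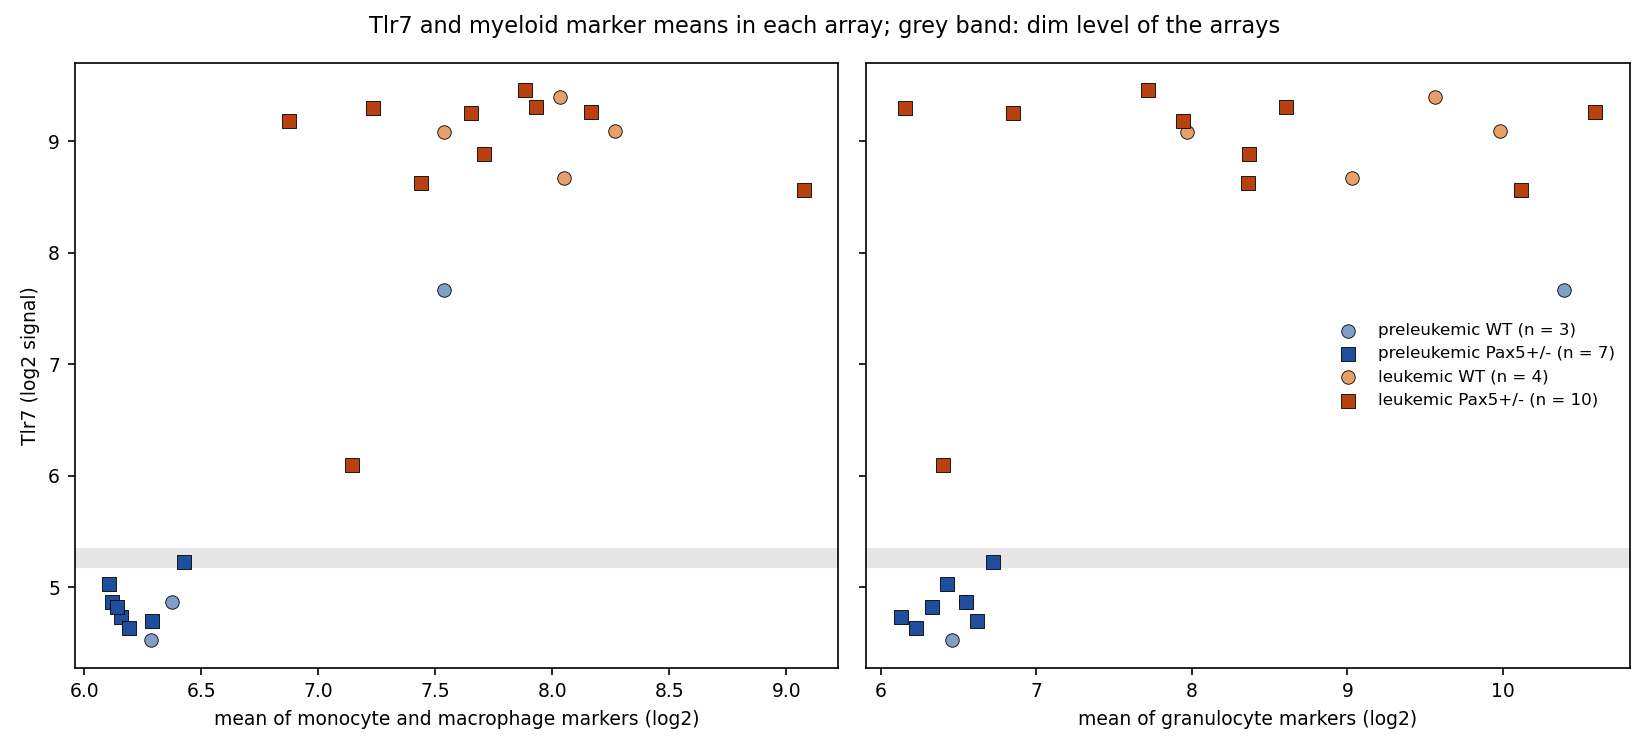
Tlr7 log2 signal (vertical axis) against the mean log2 signal of monocyte and macrophage markers (left) and of granulocyte markers (right), 1 point for each of 24 arrays, with the dim level as a grey band. Leukemic Pax5+/- array 2 has the lowest leukemic Tlr7 value (6.09) at a low granulocyte mean (6.40), and the other 13 leukemic arrays have Tlr7 values of 8.56 to 9.46 across granulocyte means of 6.15 to 10.59.

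Within the 10 leukemic Pax5+/- arrays, 30 relations between the 10 genes and the monocyte, granulocyte and mature B marker means were computed. None had a permutation p under 0.05 after Benjamini-Hochberg adjustment over the 30. For Tlr7 and the monocyte mean Pearson's r was 0.20 (two-sided permutation p = 0.503, adjusted p = 0.726) and Spearman's rho 0.24 (permutation p = 0.512, adjusted p = 1.0), with r = 0.63 without arrays 1 and 8. For Tlr7 and the granulocyte mean r was 0.28 (permutation p = 0.45, adjusted p = 0.726) and rho -0.04 (permutation p = 0.919, adjusted p = 1.0), with r = 0.39 without arrays 6 and 7. The genes most like Tlr7 over the 24 arrays were the signalling regulator Rgs18 (Pearson r = 0.99), Bmyc (0.98), the cytokine receptor subunit Il18rap (0.98), the adaptor Grap2 (0.98) and Atp8b4 (0.97). Within the 10 leukemic Pax5+/- arrays these correlations were 0.91 to 0.97, but they rest in part on array 2: over the 9 others they were 0.49, 0.84, 0.72, 0.29 and 0.46 in the same order. Over the 23 arrays without array 2 they were 0.98 to 0.99. Points from all 4 groups share the division by stage, the difference by which Tlr7 was chosen.

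Tlr9, the endosomal sensor of CpG DNA, moved the other way from Tlr7 and fell with stage in both genotypes. In preleukemic WT arrays its log2 signal was 9.52, 9.63 and 10.01, and in leukemic WT arrays 8.34, 8.35, 8.15 and 8.49. The groups did not overlap, and Tlr9 fell by 1.39 on the log2 scale (SE 0.26, 2.62-fold, limma adjusted p = 0.000269). In preleukemic Pax5+/- arrays it ran from 9.20 to 9.88 with a median of 9.65, and in leukemic Pax5+/- arrays from 7.94 to 9.37 with a median of 8.68. There it fell by 0.90 (SE 0.17, 1.86-fold, limma adjusted p = 0.000104), and 2 leukemic arrays lay within the preleukemic range.

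The fall of Tlr9 held without the arrays that stood apart. It was -1.49 (limma adjusted p = 0.000489) without preleukemic WT array 1 and -0.87 (limma adjusted p = 0.000224) without leukemic Pax5+/- array 2. The difference between the stage differences of the genotypes was 0.49 (SE 0.31, limma adjusted p = 0.732), so a difference between genotypes in the fall of Tlr9 was not detected. Between genotypes Tlr9 differed by -0.13 (SE 0.24, limma adjusted p = 0.964) in preleukemic and by 0.36 (SE 0.20, limma adjusted p = 0.741) in leukemic samples. The mean over 9 mature B markers was 8.20 to 8.80 in preleukemic and 7.44 to 8.30 in leukemic arrays. Of the 8 tested, 3 fell in each genotype (37.5%), where 35.1% of all genes fell in Pax5+/- and 20.4% in WT mice. In Pax5+/- mice 1 rose (12.5%, against 27.8% of all genes), and in WT mice 0 rose (against 18.7%). The part of these markers in the Tlr9 result was not tested.

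Tlr1, which pairs with Tlr2 to sense lipopeptides, rose with stage in Pax5+/- cells. It ran from 5.54 to 5.93 with a median of 5.67 in preleukemic and from 5.73 to 8.15 with a median of 6.83 in leukemic Pax5+/- arrays. The preleukemic values lay close above the dim level. The difference was 1.10 on the log2 scale (SE 0.27, 2.15-fold, limma adjusted p = 0.00122), and 2 leukemic arrays lay within the preleukemic range. In preleukemic WT arrays Tlr1 was 5.89, 5.96 and 5.91, and in leukemic WT arrays 6.00, 7.31, 6.59 and 6.45. These groups did not overlap, but the difference of 0.67 (SE 0.41, limma adjusted p = 0.206) did not pass the test. It was 0.43 (SE 0.43, limma adjusted p = 0.455) without leukemic WT array 2, which had the highest value.

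The other surface receptors stayed within narrow ranges. Tlr2 was 7.53, 7.46 and 7.21 in preleukemic WT and 7.62, 7.43, 7.27 and 7.48 in leukemic WT arrays. In Pax5+/- arrays it ran from 7.16 to 7.38 before leukemia and from 7.28 to 8.17 in leukemia, a difference of 0.21 (SE 0.10, limma adjusted p = 0.0575). Tlr4 ran from 5.35 to 6.21 over all 24 arrays, close above the dim level, with a stage difference of 0.22 (SE 0.10, limma adjusted p = 0.0593) in Pax5+/- mice. Both missed the threshold narrowly, and both passed it with array weights by group (adjusted p = 0.0345 for Tlr2 and 0.039 for Tlr4) and with a replicate block (0.038 and 0.0361). For Tlr2 the same held when leukemic Pax5+/- array 2 (0.23, adjusted p = 0.042), 3 or 10 was left out, and for Tlr4 after repeated quantile normalization (0.26, adjusted p = 0.0267) and without preleukemic Pax5+/- array 3 or leukemic Pax5+/- array 4, 5 or 9. In WT mice the stage differences were 0.05 (SE 0.15) for Tlr2 and -0.05 (SE 0.16) for Tlr4.

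The lipopolysaccharide co-receptors and the adaptor did not pass the test in any comparison. Ly96 was 8.99, 9.17 and 8.50 in preleukemic WT and 8.81, 8.76, 8.96 and 9.86 in leukemic WT arrays. In Pax5+/- arrays it ran from 8.54 to 9.02 before leukemia and from 7.70 to 9.13 in leukemia. Its leukemic genotype difference of -0.52 (SE 0.24, limma p = 0.0391, adjusted p = 0.608) was the only one of the 18 genotype tests of these genes with an unadjusted p under 0.05.

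Cd14 lay above the dim level on 13 of 24 arrays. Its highest value, 7.06, was in leukemic Pax5+/- array 1, which also had the highest monocyte marker mean (9.07), the highest Tlr1 value (8.15) and the highest Tlr2 value (8.17). Its measured stage difference, with 5 of 7 preleukemic Pax5+/- and 2 of 3 preleukemic WT arrays at or below the dim level, was 0.33 (SE 0.23, limma adjusted p = 0.221) in Pax5+/- and 0.06 (SE 0.36, limma adjusted p = 0.907) in WT mice. Myd88 ran from 9.18 to 9.87, with group means of 9.46, 9.41, 9.46 and 9.51 in preleukemic WT, preleukemic Pax5+/-, leukemic WT and leukemic Pax5+/- arrays. Its differences between groups ran from -0.05 to 0.10 on the log2 scale.

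**Figure D3:**
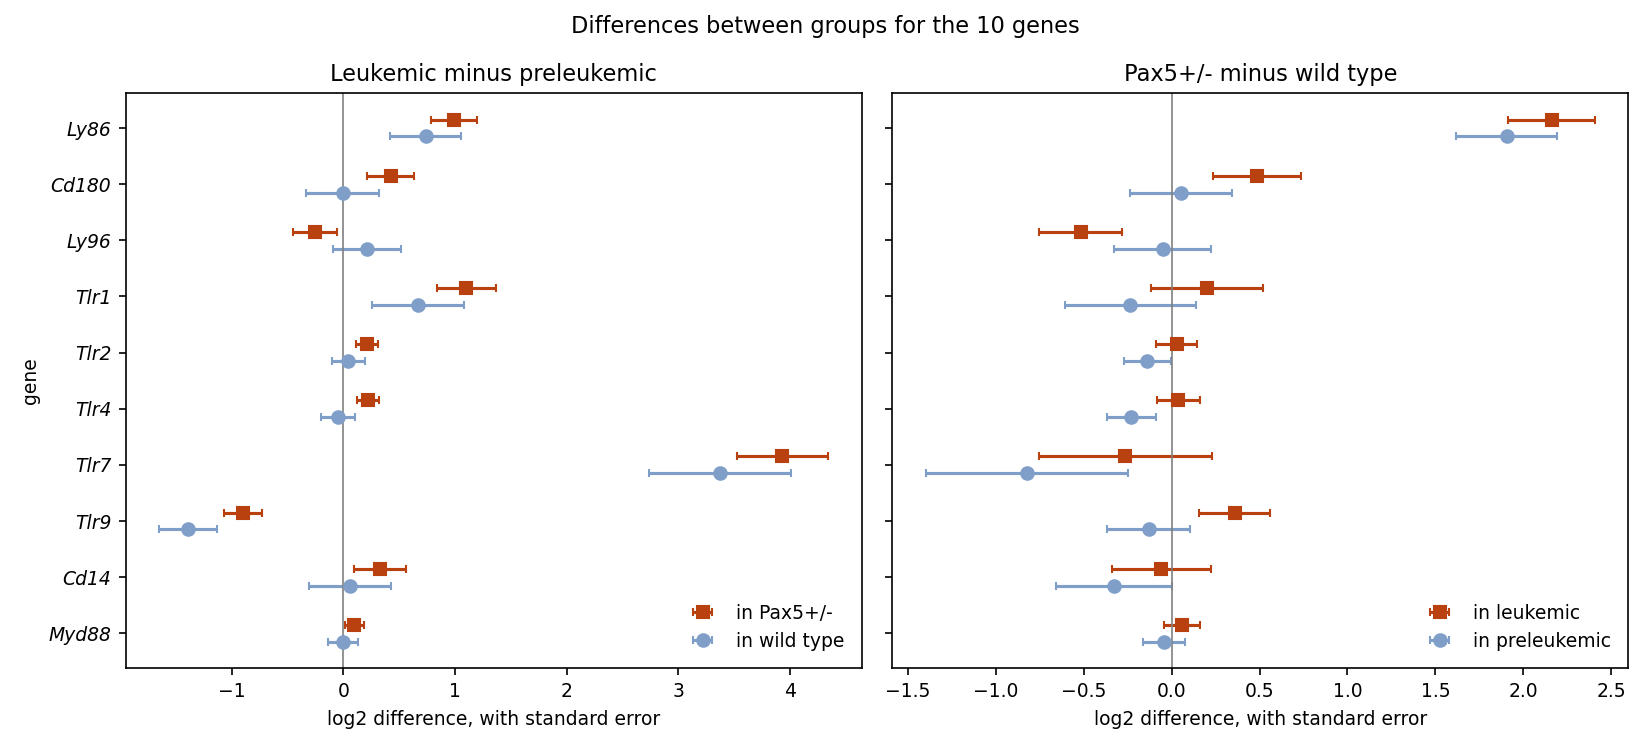
Log2 differences with standard errors for the 10 genes, leukemic minus preleukemic within each genotype (left) and Pax5+/- minus WT within each stage (right). Ly86 stands at 1.91 and 2.16 on the right and Tlr7 at 3.93 and 3.37 on the left, the differences by which they were chosen, while Tlr9 lies at -0.90 and -1.39 on the left.

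Counts of these genes were read against all 15647 genes tested. Between stages in Pax5+/- mice, 2 of the 9 genes open to the test rose (Ly86 and Tlr1), where 27.8% of all genes rose, and 1 fell (Tlr9), where 35.1% of all genes fell. In WT mice 0 rose, against 18.7% of all genes, and 1 fell (Tlr9), against 20.4%, with 2 at an unadjusted limma p under 0.05. These shares are no higher than those of all genes. For the difference between the stage differences, limma called 0 of 8 genes (0 at an unadjusted p under 0.05), against 0.179% higher and 0.00639% lower of all genes. Between genotypes limma called 0 of the 9 genes other than Ly86 in preleukemic samples (0 at an unadjusted p under 0.05), against 0.262% higher and 0.524% lower of all genes, and 0 of 9 in leukemic samples (1 at an unadjusted p under 0.05), against 0.0511% higher and 0.109% lower. The stage and genotype comparisons share groups.

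The wider pathway was read through 6 lists of 76 genes, of which 66 were tested. Between stages in Pax5+/- mice 24 rose (36.4%, against 27.8% of all genes) and 26 fell (39.4%, against 35.1%), with a median difference of -0.08 on the log2 scale against -0.05 over all genes. The 24 include Tlr3, Tlr8 and Cd36, which passed the filter on dim genes only through leukemic arrays. In WT mice 6 rose (9.09%, against 18.7% of all genes) and 23 fell (34.8%, against 20.4%), with a median of -0.17 against -0.05. Without preleukemic WT array 1 the WT counts were 9 and 23, and without leukemic Pax5+/- array 2 the Pax5+/- counts were 23 and 27. Between genotypes limma called 0 of the 66 at either stage (6 and 9 at an unadjusted p under 0.05 in preleukemic and leukemic samples), and 0 for the difference between stage differences (9 at an unadjusted p under 0.05). Without leukemic WT array 2 the WT counts were again 6 and 23. The monocyte and platelet markers above rose with stage over the same arrays, and their part in these lists was not tested.

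**Figure D4:**
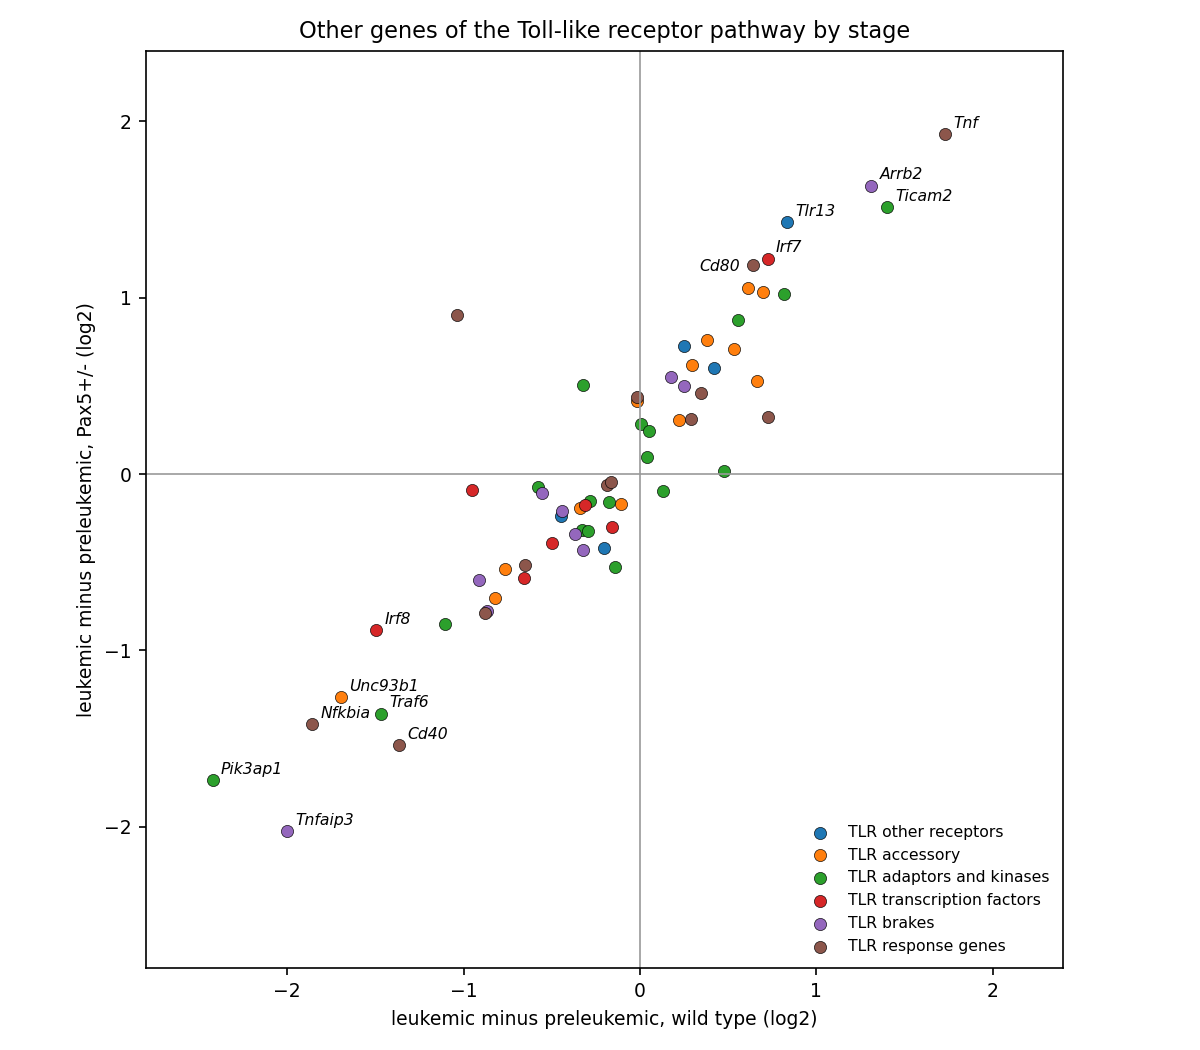
Leukemic minus preleukemic log2 difference of the 66 pathway genes in WT (horizontal axis) and Pax5+/- mice (vertical axis), coloured by list. Tnf, Arrb2 and Ticam2 lie at the upper right and Pik3ap1, Tnfaip3 and Nfkbia at the lower left.

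Of 5 other receptors tested, 3 rose and 2 fell with stage in Pax5+/- mice, and 0 rose and 1 fell in WT mice. These were 60% and 40% of the list in Pax5+/- mice, against 27.8% and 35.1% of all genes, and 0% and 20% in WT mice, against 18.7% and 20.4%. Tlr13, a sensor of bacterial RNA, rose by 1.43 (SE 0.42, 2.69-fold, limma adjusted p = 0.00582) in Pax5+/- mice, from preleukemic values of 5.41 to 5.69, close above the dim level. Tlr8 and Tlr3, both endosomal RNA sensors, were at or below the dim level in all 7 preleukemic Pax5+/- arrays and were at least 1.12-fold and at least 1.36-fold higher in leukemia. Both passed the filter on dim genes only through leukemic arrays, so their part in the 60% is a description. Tlr6, a partner of Tlr2, fell by 0.42 (SE 0.09, limma adjusted p = 0.000549) there, and Tlr12 was at least 1.35-fold lower in leukemic than in preleukemic WT cells (limma adjusted p = 0.00506). With a stricter filter on dim genes, 1 rose and 1 fell in Pax5+/- mice and 0 fell in WT mice.

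Among 13 genes of folding, trafficking and ligand handling, 8 rose and 4 fell in Pax5+/- mice, and 1 rose and 3 fell in WT mice. These were 61.5% and 30.8% of the list in Pax5+/- mice, against 27.8% and 35.1% of all genes, and 7.69% and 23.1% in WT mice, against 18.7% and 20.4%. Unc93b1, which carries Tlr7, Tlr9 and other endosomal receptors out of the endoplasmic reticulum, fell by 1.26 (SE 0.09, limma adjusted p = 2.43e-10) in Pax5+/- and fell by 1.69 (SE 0.14, limma adjusted p = 1.87e-08) in WT mice, with no overlap of groups in either. Over the same arrays Tlr9 fell and Tlr7 was higher. The lipopolysaccharide-binding protein gene Lbp rose by 1.03 (SE 0.29) and the endosomal nuclease Pld4 by 0.76 (SE 0.25, adjusted p = 0.0509 with a replicate block) in Pax5+/- mice, and the scavenger receptor Cd36 was at least 1.41-fold higher. Cd36 passed the filter on dim genes only through leukemic arrays, so its part in the 61.5% is a description. In WT mice Slc15a4, an endolysosomal transporter needed for Tlr7 and Tlr9 signalling, fell by 0.76 (SE 0.16) and Hmgb1 fell by 0.82 (SE 0.20), while the protease Lgmn rose by 0.67 (SE 0.21, adjusted p = 0.0174). The call on Lgmn was lost without preleukemic WT array 1 (adjusted p = 0.0717), leukemic WT array 3 or 4, and with only the compared groups in the fit (adjusted p = 0.0502), and the WT count of risen genes was 0 without either of those leukemic arrays. Without preleukemic WT array 1 the count was 3, made up of Cd36, Ctsb and Lbp.

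Of 18 adaptors, kinases and ubiquitin enzymes, 6 rose and 7 fell in Pax5+/- mice, and 3 rose and 6 fell in WT mice. The shares were 33.3% and 38.9% against 27.8% and 35.1% of all genes in Pax5+/- mice, and 16.7% and 33.3% against 18.7% and 20.4% in WT mice. Pik3ap1 (BCAP), a B-cell adaptor to phosphoinositide 3-kinase, fell by 1.74 (SE 0.13, 3.33-fold) in Pax5+/- mice and fell by 2.42 (SE 0.20, 5.37-fold) in WT mice. Traf6, the ubiquitin ligase below Myd88, fell by 1.36 (SE 0.09) and fell by 1.47 (SE 0.14). Ticam2 (TRAM), the bridging adaptor of Tlr4, rose by 1.51 (SE 0.13) and 1.40 (SE 0.20). The kinase gene Ikbke rose by 1.02 (SE 0.11) in Pax5+/- mice, and the B-cell kinase Btk fell by 1.10 (SE 0.15) in WT mice. The groups did not overlap for any of these 5 genes in the comparisons named, but the genes were picked for their large differences. Other called genes of the list, such as Tab2 and Tbk1 in Pax5+/- mice, had groups that overlapped.

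Among 7 transcription factors, 1 rose and 5 fell in Pax5+/- mice and 0 rose and 4 fell in WT mice. In Pax5+/- mice 14.3% rose and 71.4% fell, where 27.8% and 35.1% of all genes did, and in WT mice 57.1% fell, where 20.4% of all genes did and 18.7% rose. Irf7, which drives interferon genes below Tlr7 and Tlr9, rose by 1.22 (SE 0.38, 2.33-fold, limma adjusted p = 0.00771) in Pax5+/- mice. Irf8, a factor of B-cell and dendritic-cell development, fell by 0.89 (SE 0.30) in Pax5+/- and fell by 1.49 (SE 0.46) in WT mice, the latter lost without preleukemic WT array 1 (-1.12, adjusted p = 0.0752). The NF-kappaB gene Rel fell by 0.59 (SE 0.12) and fell by 0.66 (SE 0.19), the WT call lost without preleukemic WT array 2 (adjusted p = 0.0789). In WT mice Irf5 fell by 0.95 (SE 0.24) and Rela fell by 0.31 (SE 0.10), and the Rela call was lost without preleukemic WT array 3 (adjusted p = 0.167) and with only the compared groups in the fit (adjusted p = 0.0851). Irf1 fell by 0.39 (SE 0.15, adjusted p = 0.0241) in Pax5+/- mice, a call lost without preleukemic Pax5+/- array 5 (adjusted p = 0.0622) and with a replicate block (adjusted p = 0.148). The number that fell in Pax5+/- mice was 3 under either of the last settings.

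Of 10 negative regulators, 3 rose and 4 fell in Pax5+/- mice, and 1 rose and 5 fell in WT mice, or 3 without leukemic WT array 3, preleukemic WT array 2 or preleukemic WT array 3. The Pax5+/- shares, 30% and 40%, stood beside 27.8% and 35.1% of all genes, and the WT shares, 10% and 50%, beside 18.7% and 20.4%. Tnfaip3 (A20), which removes activating ubiquitin chains, fell by 2.03 (SE 0.21, 4.08-fold) in Pax5+/- and fell by 2.00 (SE 0.32, 4.01-fold) in WT mice. Arrb2 rose by 1.64 (SE 0.19) in Pax5+/- and by 1.31 (SE 0.29) in WT mice, the latter between 0.96 and 1.85 with each array left out. The phosphatase gene Ptpn6 rose by 0.55 (SE 0.12) in Pax5+/- mice. Socs1 fell by 0.78 (SE 0.20) in Pax5+/- and fell by 0.87 (SE 0.31, adjusted p = 0.0318) in WT mice, the latter lost without leukemic WT array 1 (adjusted p = 0.112) or 3, without preleukemic WT array 2 or 3, with only the compared groups in the fit (adjusted p = 0.139) and with Y-linked class as a covariate (adjusted p = 0.0509). Cyld fell by 0.55 (SE 0.17) in WT mice, a call lost without leukemic WT array 4 (adjusted p = 0.0513).

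Among 13 genes known to be induced by Toll-like receptor signalling, 3 rose and 4 fell in Pax5+/- mice, and 1 rose and 4 fell in WT mice. That was 23.1% and 30.8% in Pax5+/- mice, where 27.8% and 35.1% of all genes moved so, and 7.69% and 30.8% in WT mice, where 18.7% and 20.4% did. The cytokine gene Tnf rose by 1.93 (SE 0.19, 3.81-fold) and 1.73 (SE 0.30, 3.32-fold) in Pax5+/- and WT mice, with no overlap of groups. Nfkbia, the NF-kappaB inhibitor that NF-kappaB itself induces, fell by 1.42 (SE 0.22) and fell by 1.86 (SE 0.34). Cd40, a co-stimulatory receptor of B cells, fell by 1.54 (SE 0.23) and fell by 1.37 (SE 0.36). Cd80 was at least 2.25-fold higher in leukemic Pax5+/- cells, and Nfkbiz fell by 0.88 (SE 0.22) in WT mice. The number that rose in Pax5+/- mice was 2 without leukemic Pax5+/- array 2 or preleukemic Pax5+/- array 2 or 5, and with a replicate block.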

How the data were processed

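RNA was measured on 24 Affymetrix arrays. The labels call the samples of a group biological replicates, and each array is taken as 1 mouse. The authors deposited log2 values, for 35556 probe sets. The submitters' processing notes name RMA and oligo, an R package, without versions. Array medians were 6.10 to 6.30, and the number of arrays limits the precision. Probe sets were named from the platform annotation: 21789 had 1 symbol, 1621 several (not named) and 12146 none. The probe set with the highest mean stood for each gene. Genes at or above the 30th percentile of the array on at least 3 arrays were tested, 15647 of 19938.

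In R 4.3.3, limma 3.58.1 fitted the 4 group means over the 24 arrays together (two-sided, Benjamini-Hochberg over all genes tested, called at an adjusted p under 0.05), after a test on simulated data. Correlations used permutation tests. The 10 genes and the gene lists were chosen with earlier results of these data known. The text names the 10 genes, Pax5, up to 4 called genes of each pathway list per stage comparison and up to 2 in the others (those with the largest differences), and the 5 genes most like Ly86 and Tlr7 over the arrays, leaving out predicted genes, antigen receptor segments and small RNAs. Marker and neighbouring genes are named besides. Same-numbered arrays of different groups correlated between -0.363 and 0.318 in their deviations (median -0.019, 24 pairs), so replicate numbers did not pair them. Alternatives were the filter, scaling, probe choice, moderation, array weights, groups in the fit, Y-linked class, replicate block and each array left out.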

Additional observations from a re-analysis of the deposited data

Results flagged for a closer look

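Of 30 sets of 1 gene in 1 group that were large enough to test, 2 held an array far from the others by Dixon's test, where chance gives about 1 in 20. Tlr7 in leukemic Pax5+/- array 2 was 6.09, and its gap to the nearest array was 0.73 of the range of the group. Tlr2 in leukemic Pax5+/- array 1 was 8.17, with a gap of 0.59 of the range.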

How the results depend on the processing

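The calls on Ly86, Tlr1 and Tlr9 between stages in Pax5+/- mice and on Tlr9 in WT mice held under every alternative run. Over all gene values, 943 kept direction and call, 18 reversed, 6 gained and 9 lost a call under alternatives other than leaving out an array. The 943 include untested differences of Ly86 and Tlr7. These have no call and count as kept when they hold direction and move by less than the SD within groups. The replicate block, with numbers that did not pair the arrays, raised the genes of interest that rose in Pax5+/- mice from 2 to 4, as did array weights. It moved the genes called for the difference between stage differences from 29 to 17 (higher from 28 to 14, lower from 1 to 3), between preleukemic genotypes from 123 to 56 (higher 17, lower 39) and between leukemic genotypes from 25 to 2 (higher 1, lower 1). Lower calls of the first were 4 with quantile normalization, 3 with the mean of all probe sets and 2 with Y-linked class. Preleukemic genotype calls were 249 (higher 77, lower 172) with only the compared groups in the fit and 60 (higher 17, lower 43) with array weights. Leukemic genotype calls were 1 (higher 1, lower 0) with only the compared groups, 14 (higher 4, lower 10) with the stricter filter, 16 (higher 4) with quantile normalization and 3 (higher 3, lower 0) with Y-linked class; higher calls were 5 with trended robust moderation and lower calls 11 with no filter. The cause of these moves was not tested.

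None of the reversed values was called. In WT stage differences they were, with quantile normalization, Cd180 0.034, Tlr2 -0.0794 and Myd88 0.0018; with Y-linked class, Ly96 -0.17, Tlr2 -0.0497, Tlr4 0.0455, Cd14 -0.33 and Myd88 0.0201; with centring, Tlr2 -0.0033; and with the block, Tlr4 0.0065. Between preleukemic genotypes they were, with the block, Cd180 -0.12 and Myd88 0.0257, and with centring, Ly96 0.0059 and Myd88 0.0131. Between leukemic genotypes they were, with the block, Tlr1 -0.0298 and Cd14 0.33, and with Y-linked class, Tlr4 -0.0085 and Cd14 0.14. Centring on the median moved the median of all genes from -0.05 to -0.13 in Pax5+/- and to -0.10 in WT stage differences. It moved the higher and lower calls from 4354 and 5485 to 3667 and 7269 in Pax5+/- stage differences and from 41 and 82 to 54 and 57 between preleukemic genotypes (48 and 62 with quantile normalization); the difference between stage differences went from 28 and 1 to 23 and 4 with quantile normalization.

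With each array left out, WT stage ranges were 2048 to 4066 genes lower, 0 to 1 genes of interest higher, Tlr7 2.79 to 4.36, Cd180 -0.19 to 0.37, Ly96 -0.044 to 0.35, Tlr2 -0.0492 to 0.11, Tlr4 -0.14 to 0.0676, Cd14 -0.10 to 0.35 and Myd88 -0.0695 to 0.0893. For the difference between stage differences they were 11 to 48 called, 10 to 39 higher, 0 to 9 lower, Ly86 -0.25 to 0.60, Tlr7 -0.43 to 1.14 and Cd14 -0.0231 to 0.43. Between preleukemic genotypes they were 44 to 153 called, 13 to 60 higher, 31 to 93 lower, Ly86 1.65 to 2.41, Cd180 -0.14 to 0.20, Ly96 -0.25 to 0.091, Tlr7 -1.41 to 0.16 (measured values, with the Pax5+/- arrays at or below the dim level) and Tlr9 -0.23 to 0.011. Between leukemic genotypes they were 1 to 133 called, 1 to 23 higher, 0 to 110 lower, Tlr2 -0.0493 to 0.0841, Tlr4 -0.0249 to 0.12, Tlr7 -0.40 to 0.0344, Cd14 -0.23 to 0.0684 and Myd88 -0.0351 to 0.11. Signal close to background limits Tlr7 before leukemia and Cd14, which lay above the dim level on 15 and 13 of 24 arrays. Tlr4, and Tlr1 before leukemia, lay close above that level.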

Other observations

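Within the 10 leukemic Pax5+/- arrays the monocyte marker mean had Pearson's r of 0.72 with Ly96, 0.74 with Tlr9 and 0.75 with Cd14, each with an adjusted permutation p of 0.17 over 30 relations. Without the 2 arrays farthest from the median of that mean, r was 0.76, 0.48 and 0.37. Cd180 and the granulocyte marker mean had Spearman's rho of 0.85 (adjusted permutation p = 0.0846) and r of 0.62. Of the 30 relations, 11 moved by over 0.3 without the 2 farthest arrays.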
